A study of Lytechinus variegatus with 23 samples.

Results

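The NADPH oxidase genes of Lytechinus variegatus, a sea urchin, were followed in RNA of whole embryos. The genes were found by name: Nox4 (L_var_09400) and every other gene ID whose assigned symbol starts with Nox and a digit, Duox or Udx. The rule found 11 of 27231 IDs: 1 Nox4, 2 Nox5, 4 Udx2 and 4 Duoxa1. All 11 had enough reads to be tested. Symbols are those of the matched gene of another urchin, Strongylocentrotus purpuratus. Duoxa1 is a maturation factor of dual oxidases and not an oxidase, and it was caught by the start of its name.

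NADPH oxidases are membrane enzymes that take electrons from NADPH inside the cell and pass them across the membrane to oxygen, which gives superoxide or hydrogen peroxide. In mammals Nox4 releases mainly hydrogen peroxide and works with the small membrane subunit p22phox without the cytosolic activators that other family members need. Nox5 and the dual oxidases carry calcium-binding EF hands, and mammalian dual oxidases leave the endoplasmic reticulum only with a Duoxa partner. In sea urchin eggs a dual oxidase, Udx1, makes the hydrogen peroxide burst of fertilisation. Catalase, which the title of the study names, removes hydrogen peroxide.

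Embryos treated with alizarin red, an anthraquinone dye that binds calcium in mineral, and control embryos were sampled 12, 18, 24 and 30 hours post fertilisation (hpf). There were 3 libraries (A, B, C) in each of 8 groups, except 2 (B and C) for alizarin at 18 hpf, 23 in all. The labels name no genotype, dose or start of exposure, and alizarin is the difference they give between the 2 treatments. They do not say whether A, B and C are separate cultures or crosses, so a p-value here measures library-to-library spread, part of which may be technical.

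Total counts were 8468933 to 10418758 in alizarin libraries and 8194215 to 11730004 in control libraries. Levels are CPM, counts scaled to library sizes after TMM normalisation. The gene models' lengths were not used here, so levels are compared between samples and not between genes. Tests are edgeR's quasi-likelihood test over 18419 genes with Benjamini-Hochberg adjustment and a threshold of 0.05. Of 31 listed symbols of embryonic territories, 24 were found, on 35 IDs. Of these IDs, 32 reached at least 1 CPM in a group.

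Nox4 transcript was several times higher in alizarin embryos than in controls at 24 and 30 hpf, and not at 12 or 18 hpf. At 24 hpf it stood at 16.7, 19.4 and 19.2 CPM in alizarin libraries A, B and C, against 6.18, 3.70 and 5.41 CPM in the control libraries. Every alizarin library was above every control library. Alizarin embryos averaged 18.4 ± 1.48 CPM and controls 5.09 ± 1.27 CPM (SD, n = 3 each). The log2 fold change was 1.85 (SE 0.33, edgeR adjusted p = 0.00727), a fold of 3.61. The unscaled counts were also apart, 222, 251 and 177 in alizarin libraries and 63, 42 and 53 in control libraries, although the scaling factors ran at 0.887 to 1.41 in alizarin libraries and at 0.839 to 0.968 in control libraries.

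At 30 hpf Nox4 was at 9.11, 9.35 and 11.1 CPM in alizarin libraries and at 1.78, 1.52 and 2.62 CPM in control libraries. The groups again did not overlap. The means were 9.86 ± 1.1 CPM in alizarin embryos and 1.98 ± 0.572 CPM in controls (SD, n = 3 each). Nox4 rose in alizarin embryos by 2.32 on the log2 scale (SE 0.35, edgeR adjusted p = 0.000986), a fold of 4.98. The counts behind these values were 57 to 91 in alizarin libraries and 14 to 22 in control libraries. In bulk samples more cells that express Nox4 and more Nox4 RNA per cell cannot be told apart.

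**Figure D1:**
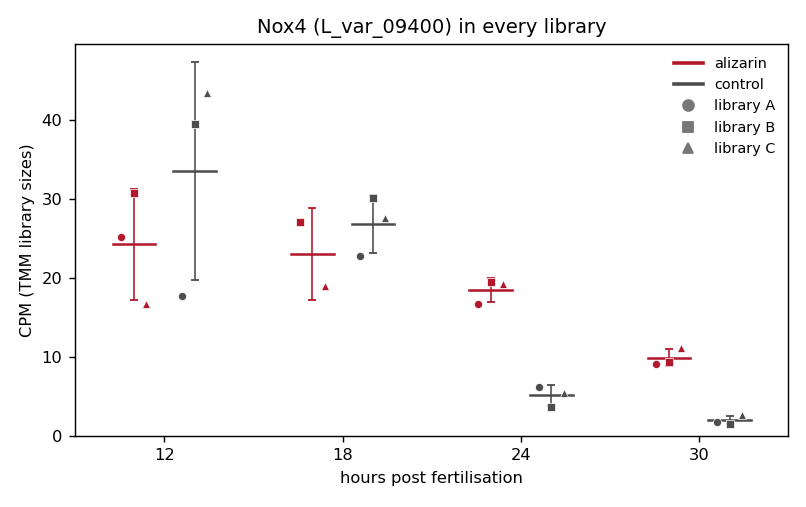
CPM of Nox4 in each of the 23 libraries (vertical axis) by hours post fertilisation (horizontal axis), with alizarin in red left of control in grey; symbols mark libraries A, B and C, horizontal lines the group means and bars the SD. The groups overlap at 12 and 18 hpf and stand apart at 24 and 30 hpf.

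Before that the groups were mixed. At 12 hpf Nox4 was at 25.2, 30.7 and 16.7 CPM in alizarin libraries and at 17.7, 39.4 and 43.3 CPM in control libraries (log2 fold change -0.47, SE 0.31, edgeR adjusted p = 0.466). At 18 hpf alizarin libraries B and C had 27.1 and 18.9 CPM, and control libraries A, B and C had 22.8, 30.1 and 27.5 CPM (-0.22, SE 0.35, edgeR adjusted p = 0.989). Neither difference passed the test, and the groups overlapped at both times. The F test of whether the alizarin effect on Nox4 differed among the 4 times passed (edgeR adjusted p = 0.00968), as it did for 93 genes, 0.505% of those tested. Averaged over the times, Nox4 rose by 0.87 on the log2 scale (SE 0.16, edgeR adjusted p = 0.00437).

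Nox4 alone among the 11 genes was called in these comparisons. At 24 hpf 1 of the 11 was called, where 0.842% of all genes tested were called, 22 higher and 133 lower. By its p-value Nox4 ranked 35th of 18419 genes there and 4th among the 22 that rose. At 30 hpf 1 of the 11 was called, against 3.32% of all genes, and Nox4 ranked 33rd of all and 12th of the 207 that rose. In the mean effect 1 of the 11 was called, against 5.04% of all genes. At 12 hpf 0 of the 11 were called and 0.0977% of all genes were. At 18 hpf 0 of the 11 were called and 0% of all genes were. With DESeq2 0 of the 11 were called at each of these 2 times too, and 0 of the 11 had an unadjusted edgeR p under 0.05. Of all genes, 16.1% had such a p at 12 hpf and 5.67% at 18 hpf. DESeq2 called 654 genes in all at 12 hpf and 50 at 18 hpf.

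The Nox4 call at 24 hpf rested in part on control library B, which had the lowest control value: without it the log2 fold change was 1.67 and the adjusted p 0.0792. The call at 30 hpf was kept whichever of the 23 libraries was left out (adjusted p up to 0.0112).

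In controls Nox4 fell between 18 and 24 hpf. Control embryos had 5.09 ± 1.27 CPM at 24 hpf, against 26.8 ± 3.71 CPM at 18 hpf (SD, n = 3 each). Nox4 fell by 2.39 on the log2 scale between these times (SE 0.33, edgeR adjusted p = 0.000188). In alizarin embryos the level was 18.4 ± 1.48 CPM at 24 hpf (n = 3), against 23 ± 5.8 CPM at 18 hpf (n = 2), and the difference of -0.32 on the log2 scale did not pass (SE 0.34, edgeR adjusted p = 0.944). From 24 to 30 hpf the log2 differences were -0.9 in alizarin embryos (SE 0.32, edgeR adjusted p = 0.145) and -1.36 in controls (SE 0.35, edgeR adjusted p = 0.0692), and neither passed. From 12 to 18 hpf they were -0.071 in alizarin embryos and -0.32 in controls, and neither passed.

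Ordered by mean level, Nox4 was highest in control embryos at 12 hpf (33.5 ± 13.8 CPM), followed by control at 18 hpf (26.8 ± 3.71), alizarin at 12 hpf (24.2 ± 7.08), alizarin at 18 hpf (23 ± 5.8), alizarin at 24 hpf (18.4 ± 1.48), alizarin at 30 hpf (9.86 ± 1.1), control at 24 hpf (5.09 ± 1.27) and control at 30 hpf (1.98 ± 0.572; SD, n = 2 for alizarin at 18 hpf and n = 3 elsewhere). With edgeR no neighbours in this order passed a test. Control at 18 hpf and alizarin at 12 hpf overlapped and were not tested against each other. The other 6 pairs had edgeR adjusted p-values of 0.0692 or more. The last 4 groups did not overlap with one another. The step of Nox4 in controls from 24 to 30 hpf passed with DESeq2 (-1.32, adjusted p = 0.0334). So did alizarin at 30 hpf against control at 24 hpf (0.99, DESeq2 adjusted p = 0.0493).

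Alizarin embryos were also set against controls of the preceding time. Alizarin embryos at 24 hpf had 16.7 to 19.4 CPM of Nox4 and controls at 18 hpf had 22.8 to 30.1 CPM, a log2 difference of -0.54 (SE 0.31, edgeR adjusted p = 0.669). Alizarin embryos at 30 hpf had 9.11 to 11.1 CPM and controls at 24 hpf had 3.70 to 6.18 CPM, a log2 difference of 0.95 (SE 0.33, edgeR adjusted p = 0.0887). Neither passed the test, although the libraries did not overlap in either pair. Of all genes, 0.152% were called between alizarin at 24 hpf and control at 18 hpf and 5.45% between alizarin at 30 hpf and control at 24 hpf. With edgeR 0 of the 11 genes were called in each, while 2 and 4 of them had unadjusted p under 0.05. Of all genes, 8.72% and 22.5% had such a p. DESeq2 called 0 and 3 of the 11, and 214 and 1842 of all 18419 genes. The 3 that DESeq2 called higher in alizarin at 30 hpf than in control at 24 hpf were Nox4 (0.99, adjusted p = 0.0493) and the Duoxa1 IDs L_var_10627 (0.92, adjusted p = 0.0151) and L_var_10771 (1.28, adjusted p = 0.015). These contrasts share libraries with those at matched times.

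Several territory markers also differed between the treatments, some in the direction of Nox4 and some in the other. Their part in the Nox4 difference was not tested. Of the 35 marker IDs 32 were tested. At 24 hpf 0 of the 32 rose and 3 fell in alizarin embryos, where 0.842% of all genes were called: Sm50 (a skeletal matrix protein), MyoR2 (a muscle regulator) and 1 of 2 IDs of Hbn (an anterior neural regulator). Summed over all 5 skeletogenic marker IDs, which include Sm50, the level at 24 hpf was 914 to 1010 CPM in alizarin libraries and 1870 to 3330 CPM in control libraries. At 30 hpf this sum overlapped, with 799 to 1720 CPM in alizarin libraries and 1550 to 1730 CPM in control libraries. At 24 hpf the 3 pigment cell IDs summed to 873 to 1290 CPM in alizarin libraries and 2130 to 2890 CPM in control libraries. The 2 muscle IDs summed at 24 hpf to 0.217 to 1.05 CPM in alizarin libraries and 19.1 to 30.5 CPM in control libraries. Of these 2 IDs, 1 was under 1 CPM in every group. At 30 hpf, where 3.32% of all genes were called, 3 of the 32 marker IDs rose, 1 of 2 Chordin IDs and both FoxQ2_1 IDs, and 2 fell, Pks1 of pigment cells and 1 of 2 Prox1 IDs. The 4 neural and apical IDs, which include FoxQ2_1, an apical plate regulator, then summed to 235 to 267 CPM in alizarin libraries and 45.8 to 64.6 CPM in control libraries. At 24 hpf this sum overlapped, with 98.9 to 367 CPM in alizarin libraries and 106 to 329 CPM in control libraries. The difference of the sum at 30 hpf lay in FoxQ2_1 alone. Its 2 IDs then averaged 129 and 82.6 CPM in alizarin embryos and 3.73 and 2.94 CPM in controls. The 2 Hbn IDs did not rise, with 26.6 and 11.2 CPM in alizarin embryos and 28.4 and 17.3 CPM in controls. At 30 hpf the pigment cell sum was 385 to 708 CPM in alizarin libraries and 1110 to 1370 CPM in control libraries. The ectoderm sum was then 478 to 516 CPM in alizarin libraries and 673 to 799 CPM in control libraries. For blastocoelar cells it was 69.1 to 97.5 and 108 to 111 CPM, in the same order. The ciliary band ID had 67.8 to 101 and 111 to 141 CPM at 24 hpf, and 86 to 126 and 132 to 149 CPM at 30 hpf. The endoderm sum overlapped at both times.

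The 2 Nox5 IDs were calcium-regulated oxidases by their symbol and low in these embryos. Nox5_1 (L_var_06393) ran at 1.43 to 8.71 CPM over the 23 libraries. At 30 hpf it was at 1.6, 3.53 and 2.32 CPM in alizarin libraries and at 6.30, 8.71 and 7.50 CPM in control libraries. The groups did not overlap, and all alizarin libraries were below all control libraries, the opposite side from Nox4. The log2 fold change of -1.58 (SE 0.55) did not pass the test over all genes (edgeR adjusted p = 0.132). Of 6 alternatives that did not leave out a single library, 1 passed, the fit of only the 6 libraries of 30 hpf (-1.56, edgeR adjusted p = 0.0252). That fit also called more of all genes at 30 hpf than the 3.32% of the main fit. Among those that did not pass were DESeq2 (-1.6, adjusted p = 0.0631) and the replicate block (-1.57, edgeR adjusted p = 0.135). At 12, 18 and 24 hpf the alizarin and control libraries of Nox5_1 overlapped, with log2 fold changes of 0.47 (SE 0.55), 0.022 (SE 0.60) and -0.1 (SE 0.53).

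The other Nox5 ID (L_var_19129) was barely read. Control library A at 18 hpf had 43 counts, and every other library had between 0 and 14. The log2 fold change at 18 hpf was -0.31 (SE 1.41, edgeR adjusted p = 0.996), and its SE was at least 1.41 at each time, so a several-fold difference would not have been detectable at this depth.

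Udx2, a dual oxidase of the family that holds the fertilisation oxidase Udx1, stood on 4 IDs, and all 4 were low. Summed over the 4, the level at 12 hpf was 6.44 ± 5.09 CPM in alizarin embryos and 6.78 ± 5.46 CPM in controls. It was 5.04 ± 2.21 and 2.98 ± 0.619 CPM at 18 hpf, 2.35 ± 0.64 and 1.58 ± 0.551 CPM at 24 hpf, and 3.48 ± 0.556 and 2.65 ± 0.682 CPM at 30 hpf, in alizarin embryos first and controls after (SD, n = 2 for alizarin at 18 hpf and n = 3 elsewhere). No Udx2 ID was called in any alizarin comparison. Reads of copies with the same symbol may be split between the IDs, so the level of each is uncertain.

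The 4 Udx2 IDs did not share 1 course. L_var_10622 kept between 0.408 and 1.88 CPM in every library. L_var_10769 had 0.365 to 2.96 CPM, with log2 fold changes from -0.81 at 12 hpf (SE 0.59) to 0.46 at 30 hpf (SE 0.56). L_var_10626 and L_var_10773 were read mainly at 12 hpf. There L_var_10626 had 1.1, 0.384 and 6.80 CPM in alizarin libraries and 0.822, 6.88 and 1.08 CPM in control libraries, so that 1 library of each group stood above the rest. L_var_10773 had 1.58, 0.768 and 3.25 CPM in alizarin libraries and 0.548, 3.11 and 1.08 CPM in control libraries, highest in the same 2 libraries. At 30 hpf L_var_10773 had 2, 0 and 1 counts in alizarin libraries and 0 in every control library, and L_var_10626 had at most 3 counts in any library. Both groups were at or under 3 counts a library, so no fold is given.

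The Duoxa1 IDs carry the symbol of the factor that brings dual oxidases to maturity. Summed over the 4 IDs, the level at 30 hpf was 690 ± 105 CPM in alizarin embryos and 564 ± 59.2 CPM in controls. At 12 hpf it was 136 ± 23.4 CPM in alizarin embryos and 164 ± 31.1 CPM in controls (SD, n = 3 each). No Duoxa1 ID was called between alizarin and control at any time, and in the mean effect the log2 fold changes of the 4 IDs were -0.11 to 0.13, with SE of 0.14 to 0.31.

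L_var_10627 was the only one of the 11 genes besides Nox4 called by edgeR in a developmental step; DESeq2 also called 2 other Duoxa1 IDs, L_var_10774 and L_var_10771. In alizarin embryos it had 194 and 241 CPM at 18 hpf, against 78.5, 69.2 and 91.8 CPM at 12 hpf. It rose by 1.45 on the log2 scale (SE 0.30, edgeR adjusted p = 0.00322), and the call was lost without alizarin library C of 18 hpf (adjusted p = 0.101) and in a fit of these 2 groups alone (adjusted p = 0.0527). In controls it had 122, 142 and 239 CPM at 18 hpf, against 97.3, 123 and 111 CPM at 12 hpf (0.6, SE 0.27, edgeR adjusted p = 0.145). Whether the step differed between the treatments was tested only within the F test over the 4 times, which L_var_10627 did not pass (edgeR adjusted p = 0.583).

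**Figure D2:**
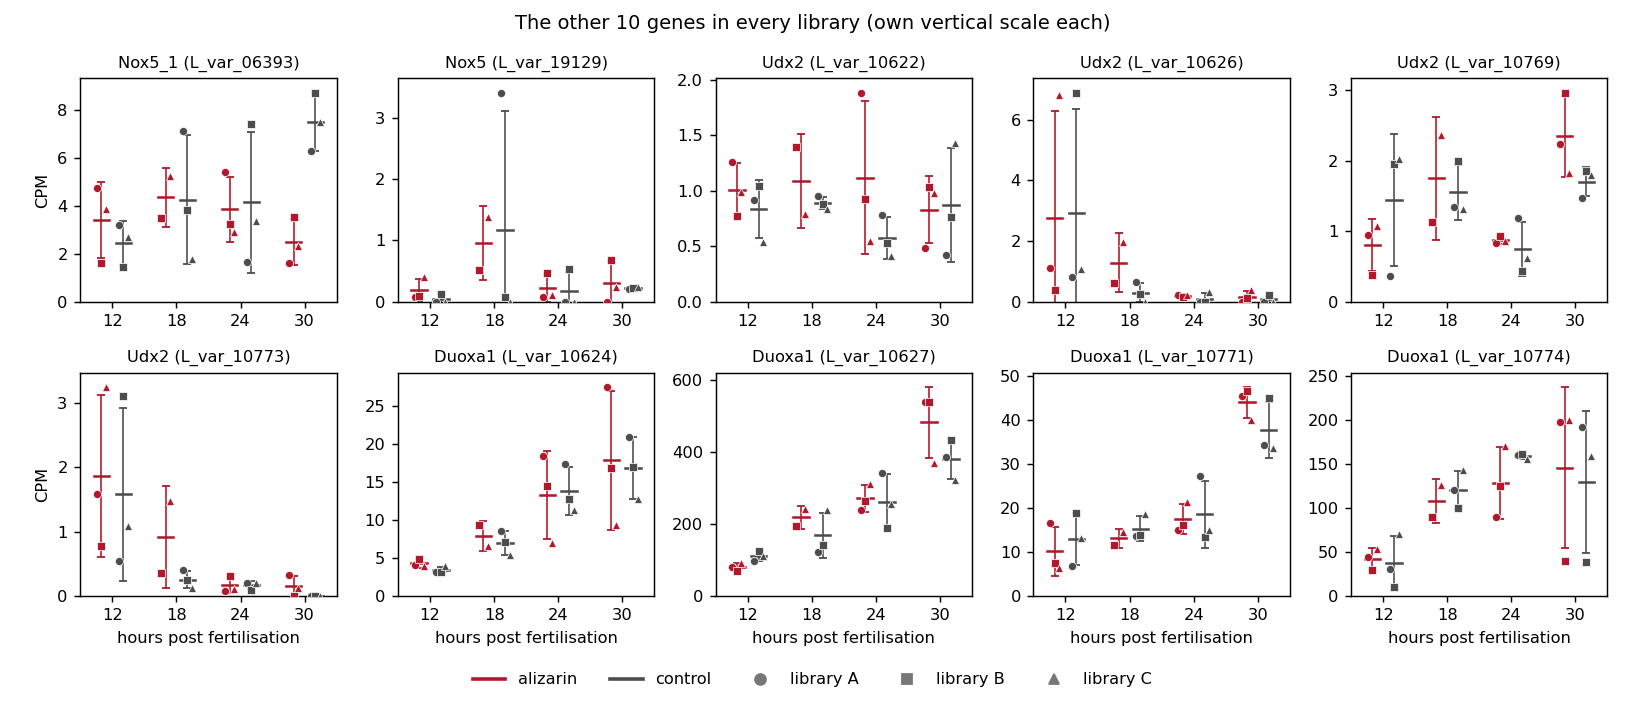
CPM of the other 10 genes in each library (vertical axis, its own scale in each panel) by hours post fertilisation (horizontal axis), with alizarin in red left of control in grey; horizontal lines are group means and bars the SD, and bars reaching below 0 end at the axis. Duoxa1 means are higher at 30 than at 12 hpf in both treatments, and Nox5_1 separates the treatments at 30 hpf, where all alizarin libraries are below all control libraries.

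The other Duoxa1 IDs also had higher means at 30 hpf than at 12 hpf. L_var_10771 averaged 43.9 ± 3.48 CPM at 30 hpf in alizarin embryos and 37.6 ± 6.41 CPM in controls, against 10.1 ± 5.60 and 12.8 ± 5.96 CPM at 12 hpf. L_var_10624 averaged 17.8 ± 9.16 CPM at 30 hpf in alizarin embryos and 16.9 ± 4.08 CPM in controls, against 4.25 ± 0.562 and 3.37 ± 0.457 CPM at 12 hpf (SD, n = 3 each). L_var_10774 had 198, 40.1 and 200 CPM in alizarin libraries at 30 hpf and 192, 38.0 and 159 CPM in control libraries, so library B was low in both treatments.

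Over the developmental steps few of the 11 genes were called. In controls 0 of the 11 were called between 12 and 18 hpf, when 14.9% of all genes were, 1 (Nox4) between 18 and 24 hpf, when 4.98% were, and 0 between 24 and 30 hpf, when 0.928% were. In alizarin embryos 1 (L_var_10627) was called between 12 and 18 hpf, when 10.7% of all genes were, 0 between 18 and 24 hpf, when 0.423% were, and 0 between 24 and 30 hpf, when 1.04% were. For the 4 steps with no edgeR call, unadjusted p was under 0.05 for 6 and 3 of the 11 genes in controls. In alizarin embryos it was for 1 and 4. Over all genes these shares were 29% and 14.1% in controls and 7.69% and 19.1% in alizarin embryos. DESeq2 called 1 gene in each of those control steps, Duoxa1 L_var_10774 between 12 and 18 hpf and Nox4 between 24 and 30 hpf. Of all 18419 genes it called 3419 and 507 there. In the alizarin steps it called 0 of the 11 between 18 and 24 hpf, and 319 of all genes. Between 24 and 30 hpf it called 2, the Duoxa1 IDs L_var_10627 and L_var_10771, and 957 of all genes.

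**Figure D3:**
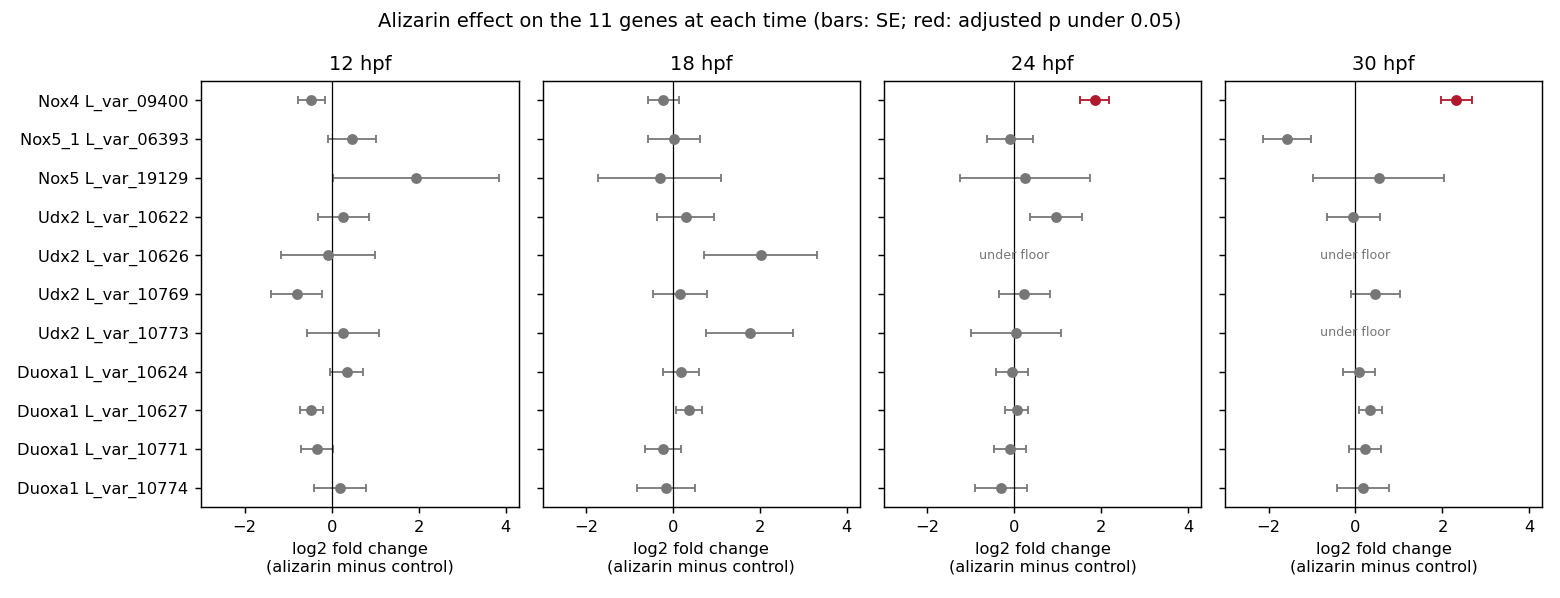
Log2 fold change of alizarin minus control (horizontal axis) for the 11 genes (rows) at 12, 18, 24 and 30 hpf (panels), with bars of 1 SE; red points passed the adjusted p threshold of 0.05, and genes with at most 3 counts in every library of both groups are marked as under the floor. Nox4 is the red point at 24 hpf (1.85) and at 30 hpf (2.32), and no other gene is red.

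Leaving out IDs at or under 3 counts in both groups, the log2 fold changes of the 11 genes lay on both sides of 0. At 24 hpf the median log2 fold change over 10 of them was 0.05, beside 0.02 over all genes tested, and 6 were above 0 and 4 below. At 30 hpf the median over 9 of them was 0.22, beside 0.033 over all genes, with 7 above 0 and 2 below. Besides Nox4 the log2 fold changes ran from -0.31 to 0.96 at 24 hpf and from -1.58 to 0.53 at 30 hpf.

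The oxidase genes outside the naming rule were not called in any of these alizarin comparisons at matched times. Cybb is the symbol of the phagocyte oxidase core, and it was on 2 IDs, with Cybb_1 on 2 more. Cybb L_var_09008 had 65.4 ± 9.03 CPM at 24 hpf in alizarin embryos and 62.3 ± 16.2 CPM in controls (SD, n = 3 each), and its mean log2 fold change over the times was 0.11 (SE 0.14, edgeR adjusted p = 0.708). The other Cybb ID, L_var_08883, had 66.8 ± 13 CPM at 24 hpf in alizarin embryos and 48.1 ± 17.0 CPM in controls, with a mean log2 fold change of 0.25 (SE 0.17, edgeR adjusted p = 0.423). An ID with the plain symbol Nox (L_var_18303) had 11.3 ± 1.93 CPM at 30 hpf in alizarin embryos and 13.6 ± 1.78 CPM in controls, with a mean log2 fold change of -0.085 (SE 0.16). The median mean effect over these 5 IDs was -0.085, beside -0.011 over all genes.

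Of the 8 IDs of oxidase partner proteins, edgeR called 0 at any of the 4 times and 0 in the mean effect, where 5.04% of all genes were called. DESeq2 called 1 at 12 hpf, which fell, where it called 654 of all 18419 genes. It called 0 of the 8 at the other times and in the mean effect. CybaL (L_var_02935), like the gene of the p22phox subunit that mammalian Nox4 needs, had 99.8 ± 14.3 CPM at 24 hpf in alizarin embryos and 109 ± 27.3 CPM in controls. At 30 hpf it had 168 ± 43.3 CPM in alizarin embryos and 142 ± 22.5 CPM in controls (SD, n = 3 each; mean log2 fold change 0.068, SE 0.16). Ncf2l (L_var_23333), like the gene of a cytosolic activator of the phagocyte oxidase, was at 20.4 ± 5.91 CPM at 24 hpf in alizarin embryos and at 54.6 ± 20.8 CPM in controls. Its log2 fold change of -1.42 there did not pass (SE 0.49, edgeR adjusted p = 0.213). Rac (L_var_18019), a small GTPase that activates the phagocyte oxidase, had a mean log2 fold change of -0.15 (SE 0.09, edgeR adjusted p = 0.395). The 3 Rap1 IDs and 2 Sh3pxd2a IDs ran from -0.51 to 0.093. Unadjusted p was under 0.05 for 1 of the 8 in the mean effect and for 21.2% of all genes. The median mean effect over the 8 was -0.21.

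Among 16 tested genes of enzymes that remove superoxide or peroxide, 1 rose and 3 fell in the mean effect, where 5.04% of all genes were called, and 12 did not pass. DESeq2 also gave 1 that rose and 3 that fell, where it called 1709 of all 18419 genes. At single times edgeR called 0 of the 16, and DESeq2 gave 1 that fell at 24 hpf and 2 that fell at 30 hpf. Of all genes DESeq2 called 499 at 24 hpf and 1200 at 30 hpf. Gpx1 (L_var_26059), a glutathione peroxidase, rose by 2.33 on the log2 scale (SE 0.60, edgeR adjusted p = 0.0291), at low levels of 0.54 ± 0.188 CPM at 24 hpf in alizarin embryos and 0.0994 ± 0.098 CPM in controls (SD, n = 3 each). Control libraries had 0 to 2 counts of Gpx1 at 24 and at 30 hpf. At 12 hpf 1 alizarin library held 119 of the 155 counts of its group. Catalase (Cat, L_var_26602) fell by 0.63 (SE 0.14, edgeR adjusted p = 0.0131). It had 102, 124 and 96.3 CPM at 30 hpf in alizarin libraries and 182, 234 and 199 CPM in control libraries, without overlap. Sod (L_var_06369), a superoxide dismutase gene, fell by 1.94 (SE 0.42, edgeR adjusted p = 0.0118), with 2.11 ± 0.969 CPM at 30 hpf in alizarin embryos and 11.6 ± 4.86 CPM in controls (SD, n = 3 each). Its mean effect also weighs times of few reads. At 12 hpf alizarin libraries had 0 to 3 counts of Sod and control libraries 1 to 4, and at 18 hpf 4 to 5 and 2 to 24. Prdx6 (L_var_23576), a peroxiredoxin, fell by 0.67 (SE 0.18, edgeR adjusted p = 0.0388). The median over the 16 was -0.33, beside -0.011 over all genes. The calls of Gpx1, Prdx6 and Cat were lost in 5, 14 and 1 of the 23 fits that left out 1 library, and that of Sod in 0; the highest adjusted p-values were 0.107, 0.141, 0.058 and 0.0412, each without alizarin library B of 18 hpf.

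Of 13 tested genes of enzymes that supply NADPH, the substrate of these oxidases, 0 rose and 2 fell in the mean effect with edgeR, which called 5.04% of all genes. With DESeq2, which called 1709 of all 18419 genes, 0 rose and 5 fell. Nnt (L_var_07075), the mitochondrial transhydrogenase, was at 186, 198 and 210 CPM at 30 hpf in alizarin libraries and at 349, 376 and 337 CPM in control libraries. It fell at 30 hpf by 0.84 on the log2 scale (SE 0.21, edgeR adjusted p = 0.0326) and in the mean effect by 0.38 (SE 0.11, edgeR adjusted p = 0.0422). Tkt (L_var_07130), the transketolase of the pentose phosphate pathway, fell by 0.67 in the mean effect (SE 0.18, edgeR adjusted p = 0.033). The mean-effect calls were lost in 18 of 23 fits for Nnt and 9 of 23 for Tkt when 1 library was left out, with adjusted p up to 0.0989 without alizarin library C of 18 hpf for Nnt and up to 0.127 without alizarin library B of 18 hpf for Tkt. The Nnt call at 30 hpf was lost in 6 of 23 such fits (adjusted p up to 0.115, without control library B of 30 hpf) and without the filter on low counts (adjusted p = 0.0605). With the replicate block within each time the Nnt mean-effect call was lost (-0.38, adjusted p = 0.0644) and its 30 hpf call was kept (-0.84, adjusted p = 0.045); without the filter the mean-effect call was lost (adjusted p = 0.0818).

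In the other lists 0 genes were called in the mean effect with edgeR or DESeq2, where edgeR called 5.04% of all genes. These were 4 haem peroxidases, 3 ferric reductase and cytochrome b561 genes, 36 tested genes of the thioredoxin and glutathione systems and 6 tested redox-responsive regulators. Unadjusted edgeR p was under 0.05 for 0, 0, 2 and 0 of them in that order, and for 21.2% of all genes. At single times edgeR called 0 of these listed genes. Of all 18419 genes DESeq2 called 654 at 12 hpf and 1200 at 30 hpf. In these lists it called 2 thioredoxin and glutathione genes at 12 hpf and 1 at 30 hpf. It also called 1 haem peroxidase and 1 regulator at 30 hpf, and all of these fell. Those with the most reads in each were Pxdn L_var_24755 (0.25, SE 0.18), Frrs1 L_var_19214 (0.23, SE 0.16), TxnL3 L_var_18777 (0.02, SE 0.17; its sign turned in some fits) and Keap1 L_var_19209 (0.1, SE 0.13). For Keap1 and Frrs1 these means average differences of opposite sign, none of which passed with edgeR. Keap1, which in mammals holds back the redox regulator Nrf2, had log2 fold changes of 0.48 at 12 hpf, 0.55 at 18 hpf, 0.25 at 24 hpf and -0.9 at 30 hpf (SE 0.26, edgeR adjusted p = 0.0633). At 30 hpf it was at 15.4, 13.8 and 20.0 CPM in alizarin libraries and at 32.4, 30.3 and 28.9 CPM in control libraries, without overlap. Frrs1, a ferric reductase, had 0.98 at 12 hpf (SE 0.31, edgeR adjusted p = 0.148) and -0.49 at 30 hpf (SE 0.31, edgeR adjusted p = 0.459).

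**Figure D4:**
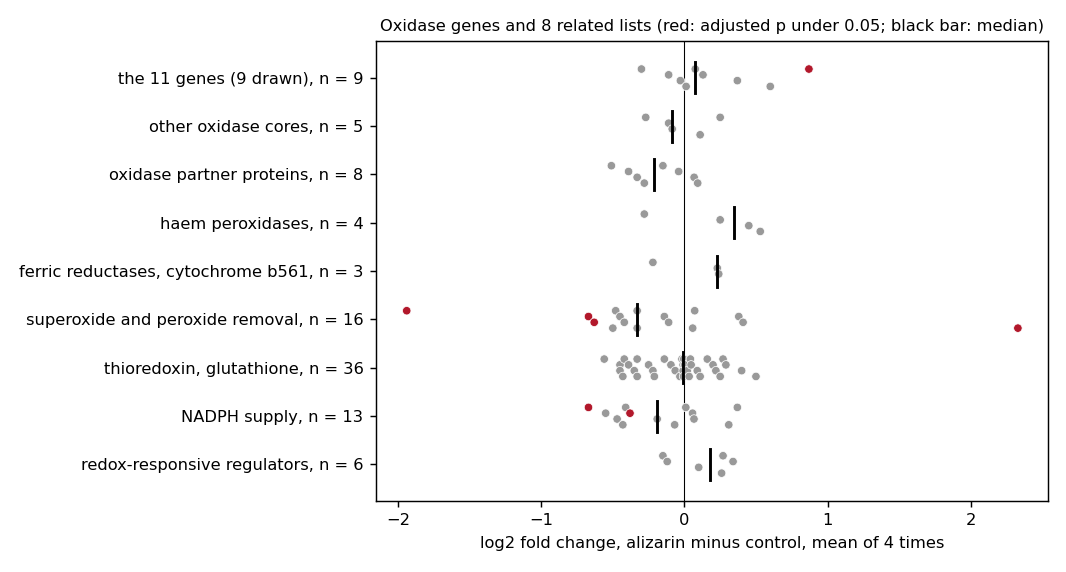
Log2 fold change of alizarin minus control averaged over 4 times (horizontal axis) for each tested gene of the oxidase family and of 8 related lists (rows), with the median as a black bar and genes past the adjusted p threshold of 0.05 in red. Nox4 (0.87) is the only red point of the family, 2 of whose IDs under the count floor are not drawn; the superoxide and peroxide list has 1 red point above 0 and 3 below, and the NADPH list has 2 below.

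Among 11585 other named genes with at least 2 CPM in a group, 10 had a Pearson r with Nox4 above 0.9 over the 23 libraries (log2 CPM, given as a description; the libraries share their times and treatments). The 8 closest were Polr1C (L_var_14181, r = 0.948, the symbol of a subunit shared by RNA polymerases I and III), Noc3l_2 (L_var_20368, 0.926), Nop58 (L_var_02732, 0.925, a nucleolar protein), Ddx18 (L_var_08670, 0.921, an RNA helicase), GagpolL_10 (L_var_26203, 0.913, a retroelement-like gene), Rrn3 (L_var_17334, 0.913, an RNA polymerase I factor), GtpbpL3(nucleolar) (L_var_06206, 0.906) and Uck2 (L_var_23605, 0.906, a uridine-cytidine kinase). Over the 8 group means their r with Nox4 was 0.948 to 0.986.

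The closest, Polr1C, was at 46.9, 56.5 and 61.1 CPM at 30 hpf in alizarin libraries and at 24.1, 24.3 and 26.8 CPM in control libraries. It rose in alizarin embryos by 1.13 on the log2 scale at 30 hpf (SE 0.24, edgeR adjusted p = 0.0116), and the 0.76 at 24 hpf did not pass (SE 0.23, edgeR adjusted p = 0.149). Of the 8 genes, 0 were called at 24 hpf with edgeR, where 0.842% of all genes were called. At 30 hpf, where 3.32% of all genes were called, 5 rose: Polr1C, Noc3l_2, Nop58, GagpolL_10 and GtpbpL3(nucleolar). The calls of Polr1C and GagpolL_10 were each lost in 3 of 23 fits that left out a library, with adjusted p up to 0.0656 and 0.0846, both without control library A of 30 hpf. Their log2 fold changes were 0.4 to 1.71 at 24 hpf, where Nox4 had 1.85, and 0.6 to 4.02 at 30 hpf, where Nox4 had 2.32. With DESeq2 Ddx18 (0.88, adjusted p = 0.0251) and Uck2 (1.02, adjusted p = 0.0199) also passed at 30 hpf. The 8 genes were picked for their likeness to Nox4 over these same libraries, so their direction and their calls are a description. The number called among them cannot be weighed against the share over all genes.

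**Figure D5:**
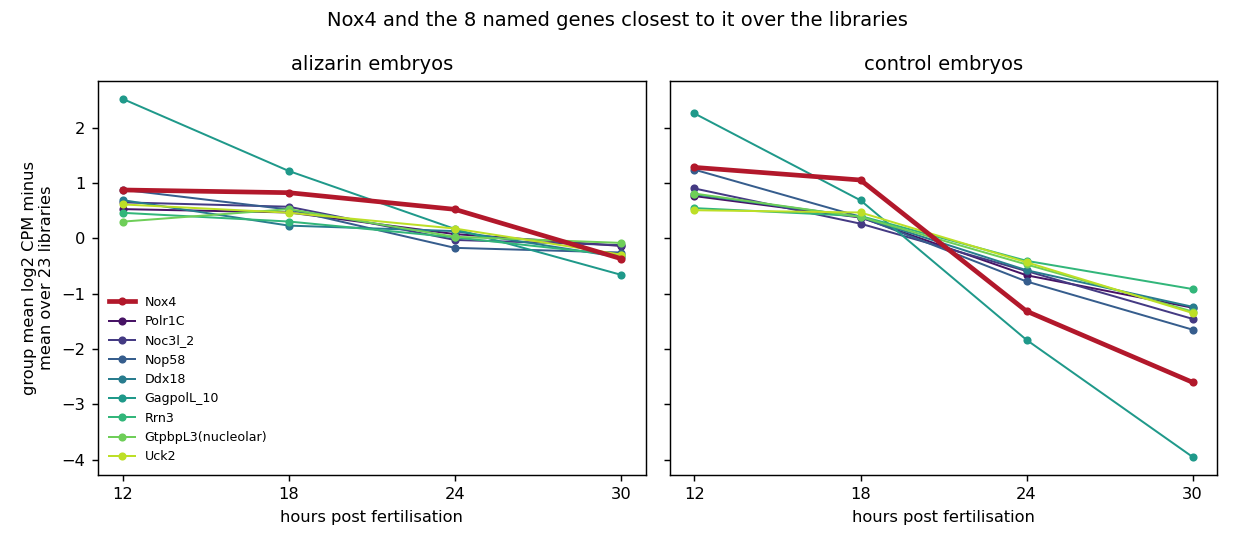
Group mean log2 CPM minus the gene's mean over 23 libraries (vertical axis) by hours post fertilisation (horizontal axis) for Nox4 (thick red) and the 8 named genes closest to it, in alizarin embryos on the left and control embryos on the right. In both treatments the lines end lower at 30 hpf than they start at 12 hpf, and at 24 and 30 hpf they lie lower in controls than in alizarin embryos.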

How the data were processed

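Per the labels' protocols, RNA of whole embryos was extracted with TRIzol and made into DNBSEQ mRNA libraries. The submitters' processing notes name STAR 2.7.1a; the genome build, annotation and counting tool are not given in the sources used here. The authors deposited raw read counts per gene and library, whole numbers, in a table of 109578 lines that repeats a gene for each protein match. It was reduced to 27232 IDs with 0 conflicts between repeats; 1 ID with unreadable counts and 4 empty columns were left out. Of the 27231 IDs used, 26092 had a read, and 13076 share a symbol with another ID, so reads of similar copies may be split. No positions, lengths or sequences are given, since the annotation in hand held none of these IDs.

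Genes were kept with edgeR's filterByExpr (minimum count 10), which kept 18419. TMM gave the library scaling, and robust quasi-likelihood models of edgeR with 8 group means were fitted over the 23 libraries, which leaves 15 degrees of freedom (common dispersion as a coefficient of variation, 0.423). Each SE was taken as the size of the log2 fold change over the square root of F. Alternatives were DESeq2's size factors and test, no filter, a block on the replicate letter, a letter term within each time, only the groups compared, each library left out, and IDs of 1 symbol summed. Same-letter libraries of the 2 treatments deviated together in every pair at 30 hpf (correlations 0.503, 0.663 and 0.57). At the other times they did not (-0.242 to 0.192). The letters may therefore pair samples at 30 hpf, which the labels do not state. The test was also run on simulated counts, which had the same dispersion for every gene and no differences between times in controls. These data differ on both points, so that run does not show how the test performs on them. The software was edgeR 4.0.16, DESeq2 1.42.0 and limma 3.58.1 in R 4.3.3, with Python 3.11.15, numpy 2.4.6, pandas 2.3.3 and matplotlib 3.10.9.

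The genes and the 8 lists were chosen with earlier results of these data known, and the lists' symbols were set after the table's names were seen. Named were all 11 genes, each list's called genes (or the one with the most reads) and the 8 named genes most correlated with Nox4 (log2 CPM, prior count 2, at least 2 CPM in a group); other IDs of the oxidase core and partner lists were named after their values were seen.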

Additional observations from a re-analysis of the deposited data

Results flagged for a closer look

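The alizarin effect on Nox4 (L_var_09400) differed among the times: the F test over the 4 times passed with an edgeR adjusted p of 0.00968. The log2 fold changes, alizarin minus control, were -0.47 at 12 hpf, -0.22 at 18 hpf, 1.85 at 24 hpf and 2.32 at 30 hpf. The call was kept whichever of the 23 libraries was left out, and the adjusted p was at most 0.0404, reached without control library A of 30 hpf. No test for a single outlying library was run on groups of 3.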

How the results depend on the processing

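Nox4 kept its direction and its call at 30 hpf, in the mean effect and in the difference among times in all alternatives run, and at 24 hpf in all but 1. At 24 hpf its log2 fold change was 1.67 to 2.01 with 1 library left out, and the adjusted p was 0.0792 without control library B; where alizarin at 18 hpf keeps 1 library, it is assumed to vary like the other groups. Under the replicate block Nox4 had 1.83 (adjusted p = 0.0101) at 24 hpf and 2.32 (0.00152) at 30 hpf, under the block within each time 1.87 (0.0202) and 2.34 (0.00494), in a fit of 1 time alone 1.87 (0.0379) and 2.33 (0.00298), and with DESeq2 1.84 (3.5e-05) and 2.31 (7.77e-07). The step of Nox4 from 12 to 18 hpf in alizarin embryos, not called, ran from -0.35 to 0.15.

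With only the groups compared, called genes among the 11 were 2 at 30 hpf (Nox5_1 added), 0 in alizarin embryos from 12 to 18 hpf, 1 from 24 to 30 hpf, and 1 for alizarin at 30 hpf against control at 24 hpf. With DESeq2 they were 1 in controls from 12 to 18 hpf (3419 of all 18419 genes) and 1 from 24 to 30 hpf (507), 2 in alizarin embryos from 24 to 30 hpf (957), and 3 for alizarin at 30 hpf against control at 24 hpf (1842). With the replicate block they were 2 in controls from 12 to 18 hpf, and the block changed no other count. Within 30 hpf, where same-letter libraries deviated together, it changed no call of the 11 genes. With 1 library left out they were 0 to 1 at 24 hpf, 0 to 1 in controls from 12 to 18 hpf, 1 to 2 from 18 to 24 hpf and 0 to 1 from 24 to 30 hpf, 0 to 1 in alizarin embryos from 12 to 18 hpf and 0 to 1 from 24 to 30 hpf, and 0 to 2 for alizarin at 30 hpf against control at 24 hpf. Apart from fits with fewer libraries, the cause was not tested. Counts over all genes also moved between the fits. For the groups alone at 30 hpf, and in alizarin embryos from 12 to 18 hpf, they are given below. Where no count over all genes is given, the count among the 11 is not read as a result about these genes.

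Uncalled mean effects near 0 changed sign. Udx2 L_var_10769 had -0.0033 with DESeq2's size factors, -0.00072 with the replicate block and -0.15 to 0.13 with 1 library left out. Duoxa1 L_var_10774 had 0.025 with the replicate block, 0.037 with the block within each time and -0.14 to 0.18 with 1 library left out. TxnL3 L_var_18777 had -0.0058 with the block within each time and -0.053 to 0.13 with 1 library left out. With IDs of 1 symbol summed, an alternative chosen after seeing the data, Udx2 had 0.41 (adjusted p = 0.428), Duoxa1 0.027 (0.938) and Cybb 0.17 (0.526), and the Duoxa1 step from 12 to 18 hpf in controls then passed (0.93, 0.0157).

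Over all genes DESeq2 called more than edgeR: 654 against 18 at 12 hpf, 50 against 0 at 18 hpf, 499 against 155 at 24 hpf, 1200 against 612 at 30 hpf, 1709 against 928 in the mean effect and 725 against 93 in the difference among times. At 12 hpf the replicate block gave 97 and the block within each time 65. At 24 hpf the block within each time gave 304, and at 30 hpf a fit of that time alone gave 1822 (0 at 12 hpf, where DESeq2 size factors gave 9). In controls DESeq2 called 1614 from 18 to 24 hpf (edgeR 918) and 507 from 24 to 30 hpf (171), and fits of the 2 groups alone 772 from 12 to 18 hpf (2750), 525 and 527. In alizarin embryos DESeq2 called 319 from 18 to 24 hpf (78) and 957 from 24 to 30 hpf (191), and fits of the 2 groups alone 379 from 12 to 18 hpf (1964) and 4 from 18 to 24 hpf. Alizarin at 24 against control at 18 hpf gave 214 with DESeq2 and 1 with these groups alone (28), and alizarin at 30 against control at 24 hpf 1842 with DESeq2 (1003). Of the NADPH supply genes 5 fell with DESeq2, 1 without the filter and 0 to 3 with 1 library left out, against 2. With 1 library left out the counts were 1 to 905 at 12 hpf, 41 to 258 at 24 hpf, 170 to 881 at 30 hpf, 386 to 1409 in the mean effect and 18 to 355 in the difference among times. Depth limits genes of few reads, such as Nox5 L_var_19129 and 2 of the Udx2 IDs.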

Other observations

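Values of 3 genes went with single libraries rather than with a treatment; these genes were chosen after their values were seen. Duoxa1 L_var_10774 at 30 hpf was at 40.1 CPM in alizarin library B and at 38.0 CPM in control library B, while the other libraries of that time had 159 to 200 CPM. At 12 hpf library B also had its lowest value in each treatment, 28.8 CPM in alizarin embryos and 10.3 CPM in controls, and at 18 hpf it was again lowest, with 89.8 CPM against 126 CPM in alizarin library C, and with 99.6 CPM against 120 and 143 CPM in control libraries A and C. At 24 hpf it was not: alizarin library B, at 125 CPM, lay between 89.4 and 171 CPM, and control library B, at 161 CPM, was the highest of its group. The Udx2 IDs L_var_10626 and L_var_10773 both peaked in alizarin library C and control library B of 12 hpf. L_var_10626 had 69 counts in that alizarin library and 53 in that control library. L_var_10773 had 33 counts in the alizarin library and 24 in the control library.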
